A study of Rattus norvegicus with 3 samples.

Results

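Cyclin-dependent kinase (CDK) inhibitors are small proteins that hold the cell cycle back, and the genes for 7 of them, together with Cdkn3, were followed in rat keratinocytes given opioid peptides. The 8 genes, Cdkn1a, Cdkn1b, Cdkn1c, Cdkn2a, Cdkn2b, Cdkn2c, Cdkn2d and Cdkn3, were chosen by the gene symbols of the array's annotation, and all 8 were found among 15037 named genes, each with 1 probe set. The samples were 3 dishes of FRSK, an established line of keratinocytes from the skin of rat fetuses, and each gave 1 whole-transcript array. One culture received Met-enkephalin (Met-ENK) at 100 nM for 24 h, one received β-END(1-9), the N-terminal fragment of β-endorphin, at 100 nM for 24 h, and one was left unstimulated as the control. All 3 cultures grew in DMEM with serum, the line carries no genetic change named in the labels, and the sources used here do not say whether the control was given vehicle. The values are log2 signals, so that a difference of 1 is a 2-fold difference.

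In the textbook scheme, CDKs bound to cyclins drive a cell through the G1, S, G2 and M phases. Inhibitors of the Cip/Kip family (Cdkn1a, Cdkn1b and Cdkn1c, encoding p21, p27 and p57) bind complexes of cyclin and CDK, mainly those of Cdk2, whereas the INK4 family (Cdkn2a, Cdkn2b, Cdkn2c and Cdkn2d, encoding p16, p15, p18 and p19) binds Cdk4 and Cdk6 alone and keeps them from D-type cyclins. Cdkn3 belongs to neither family: it encodes a phosphatase that removes the activating phosphate from CDKs, and in human cells its transcript is known to be highest late in the cell cycle. In epidermis, keratinocytes leave the cell cycle when they move off the basement membrane, and p21 and p27 are known parts of that exit.

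Since each condition has 1 array, the spread between cultures cannot be estimated and no difference below has a test. Genes were called higher or lower from 1.5-fold upwards (a log2 difference of 0.58). Calls were made for genes with a mean log2 signal of 6.41 or more over the 3 arrays, this being the middle value of all named genes, and 7519 genes passed that filter. The 23 background probe sets of the array spanned log2 signals of 2.51 to 7.57. Of the 8 genes, 7 passed the filter, 5 were above the background range on all 3 arrays, and Cdkn1c was below the filter. All 9 measured markers of basal keratinocytes were above the background range on all 3 arrays, as were 2 of 8 for fibroblasts (Col3a1 and Col1a1), 1 of 5 for melanocytes (Mitf), 0 of 6 for endothelial cells and 1 of 7 for immune cells (Cd74). In a bulk sample, fewer cells carrying a transcript and less of it per cell cannot be told apart.

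Cdkn3 and Cdkn2d were the members that stood lower on the Met-ENK array, with deposited signals more than 2-fold below both other arrays. A share of 0.745% of all genes past the filter was lower by 2-fold against control, and 0.213% against β-END(1-9). Both Met-ENK signals lay within the background range, so these differences have only a bound. With the highest background probe set as the floor, Cdkn3 was at least 2.31-fold lower than control and at least 1.78-fold lower than with β-END(1-9), and Cdkn2d at least 1.42-fold and at least 1.504-fold lower. None of the 8 genes was at least 1.5-fold higher in any comparison (0 genes). Between Met-ENK and control, 2 of the 8 genes were at least 1.5-fold lower, where 6.02% of all genes past the filter were lower and 0.692% higher by that much. Between Met-ENK and β-END(1-9) the same 2 were lower, where 2.7% of all genes were lower and 1.89% higher. Between β-END(1-9) and control 0 of the 8 passed 1.5-fold in either direction, where 2.27% of all genes were lower and 0.559% higher. The genes were picked with these values known, so these shares are printed for scale only. The median difference over the 8 genes was -0.12 for Met-ENK against control, -0.05 for β-END(1-9) against control and -0.09 for Met-ENK against β-END(1-9), beside a median of 0 over all named genes in each comparison. Over the genes past the filter alone, the medians were 0, -0.03 and 0 in that order.

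**Figure D1:**
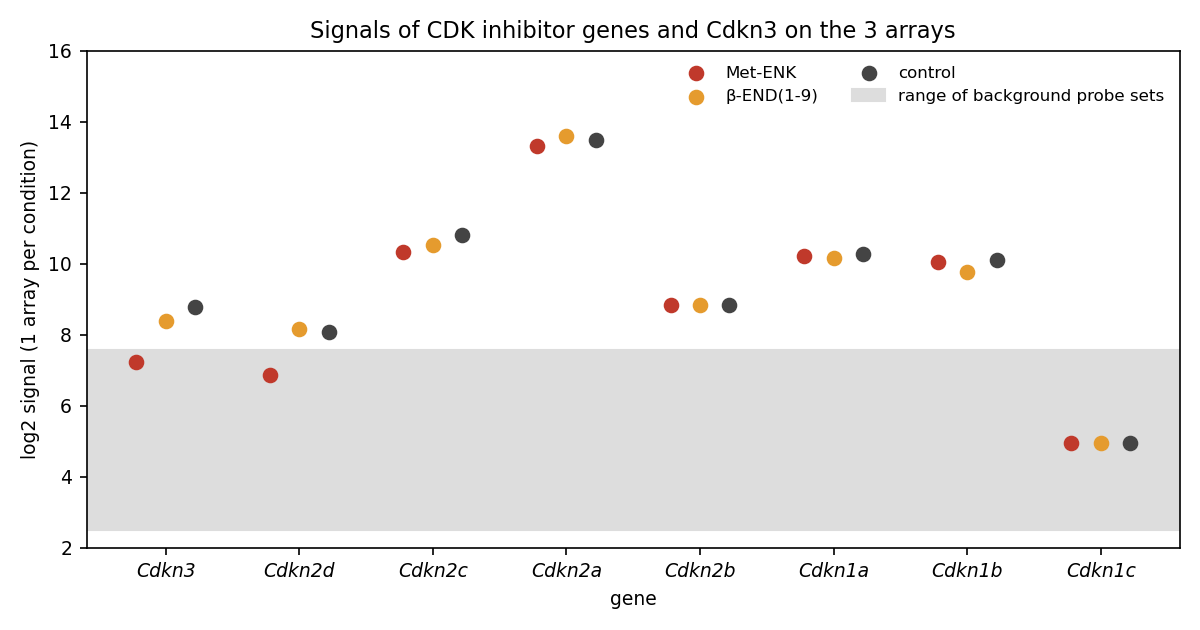
Log2 signal of each gene (vertical axis) on the Met-ENK, β-END(1-9) and control arrays, 1 point per array, with the range of the 23 background probe sets in grey. On the Met-ENK array Cdkn3 (7.24) and Cdkn2d (6.86) lie inside the grey range, which they exceed on the other 2 arrays. Levels of different genes come from different probes and are not comparable with each other.

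Cdkn3, the CDK phosphatase, had a log2 signal of 7.24 with Met-ENK, 8.39 with β-END(1-9) and 8.78 in control cells. The Met-ENK array was thus low, and the β-END(1-9) array stood nearer to control than to Met-ENK. The deposited Met-ENK signal differed by -1.54 from control on the log2 scale, or 2.91-fold, and by -1.16 from β-END(1-9), or 2.23-fold, both against a Met-ENK value within the background range. Measured above background on both arrays, the β-END(1-9) signal differed from control by -0.38 on the log2 scale, or 1.30-fold lower, short of 1.5-fold. From the lowest, this was number 622 of the 7519 genes past the filter.

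Cdkn2d, whose product p19 of the INK4 family blocks Cdk4 and Cdk6, had a log2 signal of 6.86 with Met-ENK, 8.16 with β-END(1-9) and 8.08 in control cells. The Met-ENK array was again the low one, and here β-END(1-9) and control were close. The deposited Met-ENK signal differed by -1.22 from control on the log2 scale, or 2.32-fold, and by -1.30 from β-END(1-9), or 2.46-fold, again against a Met-ENK value within the background range. On the floor the difference from control was -0.51 and fell short of 1.5-fold. Between β-END(1-9) and control, both above background, it was 0.08 on the log2 scale, number 6705 of 7519 genes from the lowest. The array's identifier for the Cdkn2d probe set marks it as unmapped in the array's own annotation, and its gene was taken from the accession listed with it.

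The upstream sequences of both genes are shown because these were the members that stood apart together on 1 array, and because promoters of late cell cycle genes are known for CCAAT boxes and for the element called the cell cycle homology region. Both stretches come from the RefSeq promoter windows of build GRCr8 and are the bases before the earliest annotated start of the gene, 5′ to 3′ on the gene's own strand. Capitals mark, on either strand, CCAAT boxes (CCAAT or ATTGG), the cell cycle homology region (TTTGAA or TTCAAA) and GC boxes (GGGCGG or CCGCCC), whose letters do not overlap here. The Cdkn3 stretch is 163 bases at chr15:22502136-22502298 on the plus strand, and that of Cdkn2d is 250 bases at chr8:28110810-28111059 on the minus strand. No other annotated gene overlaps either stretch (0 genes).
Cdkn3: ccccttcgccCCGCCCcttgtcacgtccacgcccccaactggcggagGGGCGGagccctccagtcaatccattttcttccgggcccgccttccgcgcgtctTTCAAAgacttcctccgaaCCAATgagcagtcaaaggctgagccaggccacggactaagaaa
Cdkn2d: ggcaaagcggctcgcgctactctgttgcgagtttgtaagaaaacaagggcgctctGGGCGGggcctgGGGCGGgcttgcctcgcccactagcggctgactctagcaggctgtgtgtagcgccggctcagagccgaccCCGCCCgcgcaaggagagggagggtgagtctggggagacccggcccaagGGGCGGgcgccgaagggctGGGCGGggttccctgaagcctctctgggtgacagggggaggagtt

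The Cdkn3 stretch holds 1 CCAAT box, 1 match to the cell cycle homology region and 2 GC boxes, while the Cdkn2d stretch holds 5 GC boxes and none of the other 2 motifs (0 matches). The whole windows run over 300 bases, from 250 before to 50 after an annotated start, and 7 members have one. For Cdkn3 that start lies further on than the earliest one, so its windows reach further into the gene. Cdkn3 has a second window 12 bases further on, with the same matches except for 2 GC boxes in place of 3, and its first window is counted here. Cdkn3 had 3 CCAAT boxes and Cdkn1b had 2, whereas 0 were found for the other 5 members. Of the 3 CCAAT boxes in the Cdkn3 window 1, and of its 3 GC boxes 2, lie before the earliest start. The cell cycle homology region was matched in Cdkn3 and Cdkn2b, and a GC box in the windows of 6 of the 7 members, all but Cdkn1a. Of all 33469 promoter windows of the rat table, 37.5% held a CCAAT box, 18.3% the cell cycle homology region and 33.1% a GC box. An E2F site searched as TTTCCCGC or TTTGGCGC on either strand was found for 0 of the 7 members and in 1.45% of all windows. These matches are letters in a window and do not show that a factor binds there.

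**Figure D2:**
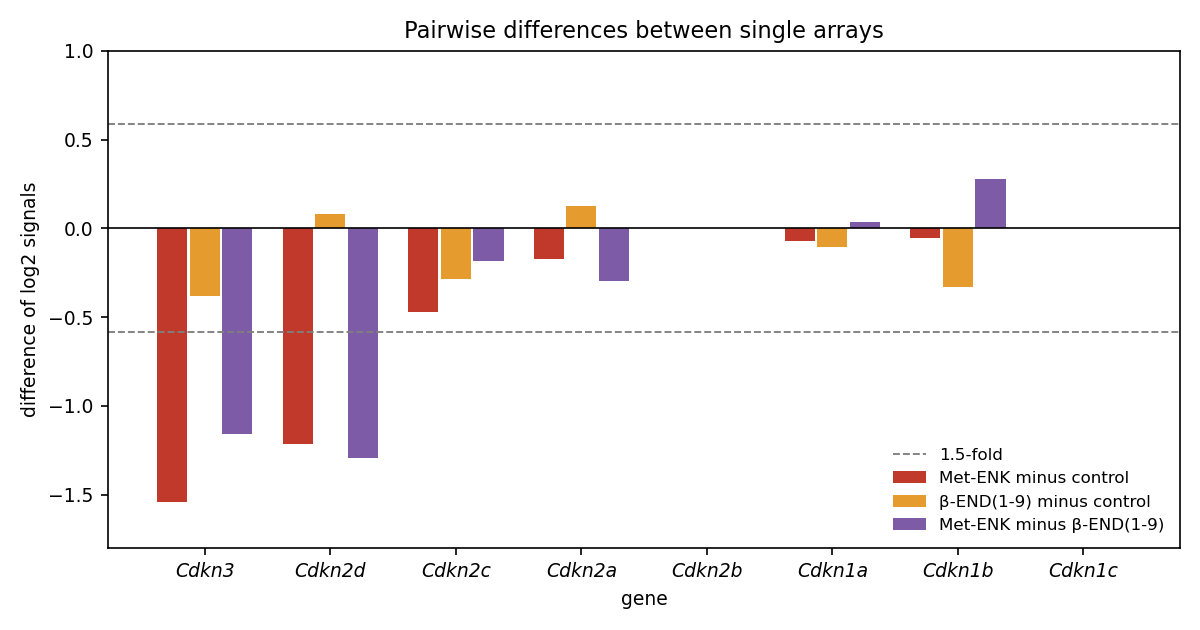
Difference of log2 signals between single arrays (vertical axis, bars from 0) for each gene in 3 comparisons, with dashed lines at 1.5-fold. In deposited signals Cdkn3 and Cdkn2d pass the lower line in both comparisons that involve Met-ENK, at -1.54 and -1.16 and at -1.22 and -1.30. Their Met-ENK signals lie within the background range, and with the highest background probe set as the floor Cdkn2d against control is -0.51, short of the line. Cdkn2b and Cdkn1c have no bar because all their differences are 0.

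Among the other INK4 genes none differed by 1.5-fold (0 of 3). Cdkn2c, encoding p18, came nearest, with log2 signals of 10.34 with Met-ENK, 10.52 with β-END(1-9) and 10.81 in control cells. Both peptide arrays were below control, by a log2 difference of -0.47 for Met-ENK and -0.29 for β-END(1-9), and they differed from each other by -0.18. Cdkn2a had 13.30 with Met-ENK, 13.60 with β-END(1-9) and 13.48 in control cells. Its differences from control were -0.18 for Met-ENK and 0.12 for β-END(1-9), and Met-ENK lay -0.30 from β-END(1-9). The Cdkn2a locus makes 2 unlike proteins, the CDK inhibitor p16 and the p53-stabilising ARF, and its single probe set gives 1 value for the gene.

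Cdkn2b, whose product p15 is a known target of TGF-β signalling in keratinocytes, read 8.84 on the Met-ENK, β-END(1-9) and control arrays alike, the values being exactly equal. In the rat annotation it lies beside Cdkn2a on the same chromosome with 1 protein-coding gene between them. Exactly equal values are common in these data, at 11.8% of the 7519 genes past the filter (890 genes) for all 3 arrays, so an exact 0 is no measure of how steady the transcript was.

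The Cip/Kip genes also stayed within 1.5-fold in every comparison. Cdkn1a, encoding p21, the inhibitor induced by p53, had log2 signals of 10.21 with Met-ENK, 10.18 with β-END(1-9) and 10.28 in control cells, differences from control of -0.07 and -0.11. Cdkn1b, encoding p27, had 10.05 with Met-ENK, 9.77 with β-END(1-9) and 10.10 in control cells. For Cdkn1b the β-END(1-9) array was the low one, -0.33 from control, while Met-ENK lay -0.05 from control and 0.28 above β-END(1-9). Cdkn1c, encoding the imprinted inhibitor p57, read 4.95 on all 3 arrays, again exactly equal and within the background range, and a signal at that level does not show whether the transcript was present.

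All 8 genes are short from start to end in the GRCr8 annotation, with genomic spans of 2.77 kb (Cdkn2d) to 13.7 kb (Cdkn2a). Span is given because lower signals on the Met-ENK array were unevenly spread over it. Among genes past the filter, 13.6% of the quintile with the shortest spans (up to 8.05 kb) were at least 1.5-fold below control with Met-ENK, and 7.78%, 4.86%, 2.39% and 1.53% of the following quintiles. Cdkn2d, Cdkn1b and Cdkn2c fall in the shortest quintile, and Cdkn3 (11.4 kb), Cdkn1a, Cdkn2a and Cdkn2b in the next. For β-END(1-9) against control the shares were level, at 2.53%, 2.46%, 1.86%, 1.93% and 2.59%. Removing the trend along span takes out a smoothed centre line only. After it 442 genes were at least 1.5-fold lower with Met-ENK, against 453 before. The counts do not show whether these were the same genes. The deposited signals of Cdkn3 and Cdkn2d then differed from control by -1.52 and -1.20 with Met-ENK, under the same limit of background. That step cannot show what part span has in their values, which was not tested further.

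**Figure D3:**
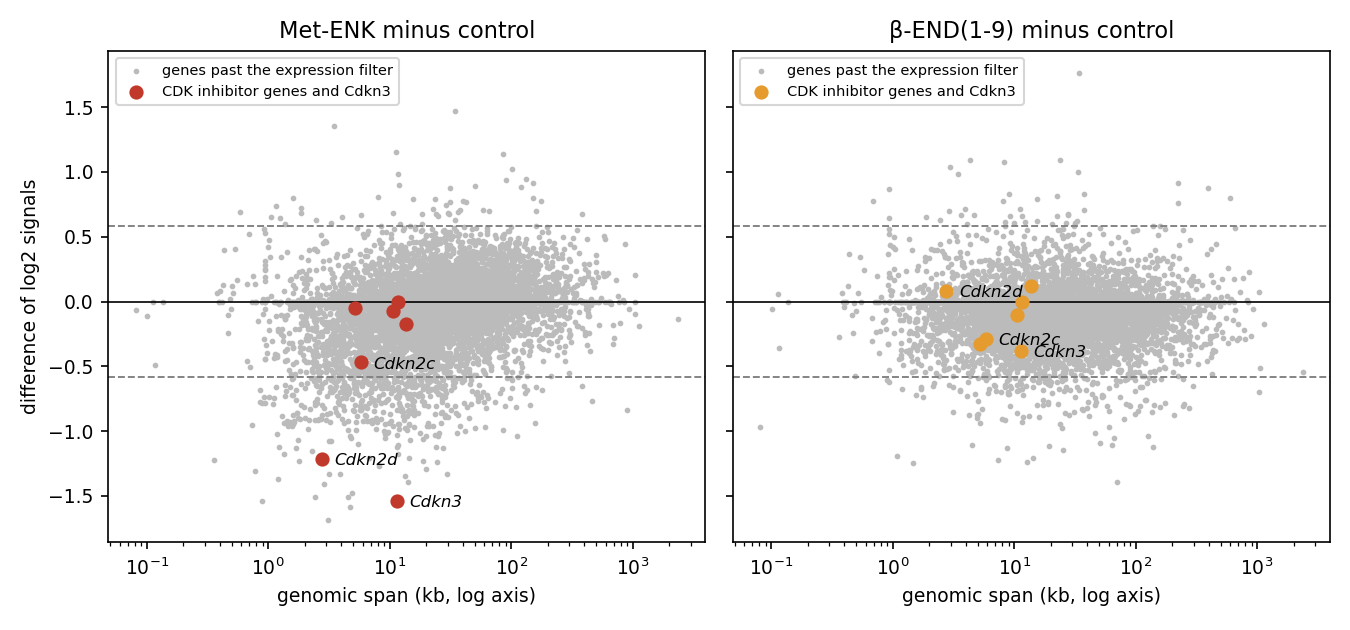
Difference of log2 signals from control (vertical axis) against genomic span in kb (horizontal axis, log scale) for the 7519 genes past the filter in grey, with the 7 of them that are CDK inhibitor genes or Cdkn3 in colour; Met-ENK is on the left and β-END(1-9) on the right. Dashed lines mark 1.5-fold. On the left the grey cloud reaches lower at short spans, and the deposited signals put Cdkn3 at -1.54 and Cdkn2d at -1.22, while on the right they lie at -0.38 and 0.08.

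The genes whose pattern over the 3 arrays was most like each of the 2 lower members were found by Euclidean distance in log2 units, after each gene was centred on its own mean. Nearest to Cdkn3 were Uqcr11 (distance 0.08), a subunit of respiratory complex III, the carbonyl reductase Cbr1 (0.17), the complex I assembly factor Ndufaf5 (0.18), Mrpl53 of the mitochondrial ribosome (0.18), the metallothionein Mt2A (0.19) and the Rab-binding protein Rabac1 (0.20). Uqcr11 differed from control by -1.59 with Met-ENK and -0.50 with β-END(1-9), and Mt2A by -1.31 and -0.39. Nearest to Cdkn2d were Plgrkt (0.10), a plasminogen receptor, Dad1 (0.13) of the oligosaccharyltransferase, the ubiquitin ligase Stub1 (0.13), the cyclophilin Ppil1 (0.14), the NRF2 regulator Keap1 (0.19) and Jagn1 (0.19). Plgrkt differed from control by -1.21 with Met-ENK and -0.04 with β-END(1-9), and Keap1 by -1.01 and 0.03. The Met-ENK values of Cdkn3 and Cdkn2d lie within the background range, which limits these distances too. So do those of Plgrkt (6.76) and Ndufaf5 (7.12), whose Met-ENK differences likewise have only a bound. Cdkn2d stood at place 24 in likeness to Cdkn3 (distance 0.34), and Cdkn3 at place 21 in likeness to Cdkn2d. A pattern over 3 arrays has few ways to differ, so these distances are descriptions.

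**Figure D4:**
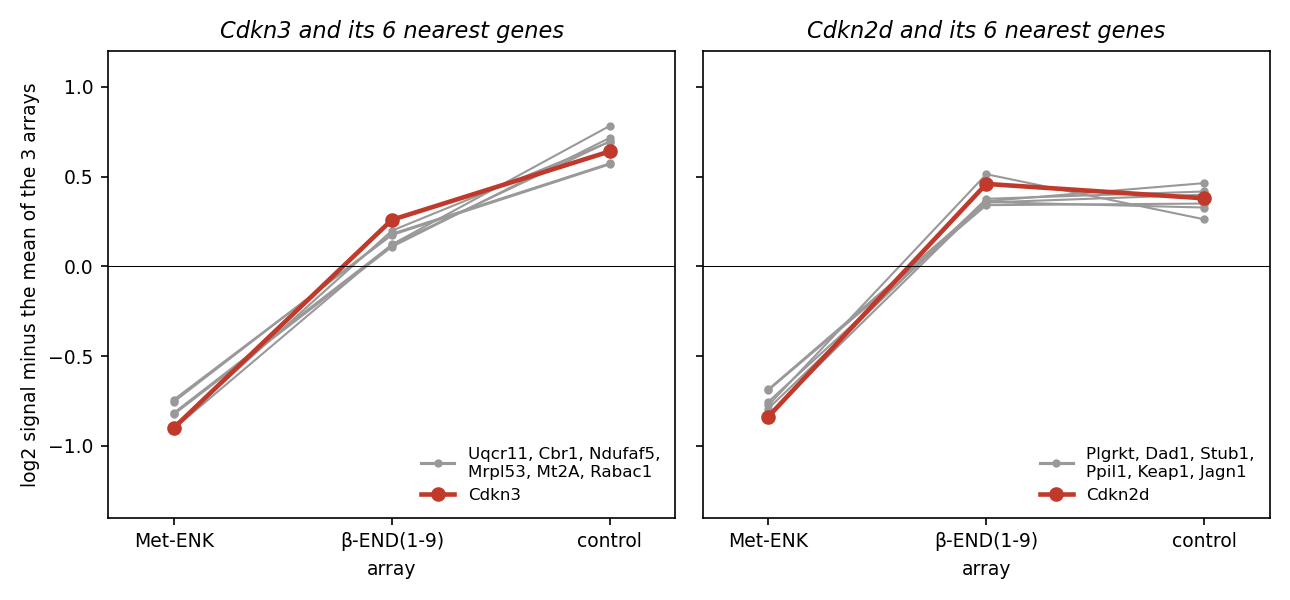
Log2 signal minus the gene's mean over the 3 arrays (vertical axis) on the Met-ENK, β-END(1-9) and control arrays for Cdkn3 (left) and Cdkn2d (right) in red and the 6 genes nearest to each in grey, 1 value per array. Lines join the values of 1 gene and stand for no order of conditions. In the left panel β-END(1-9) lies below control, and in the right panel both lie close together above Met-ENK.

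The kinases and cyclins that the inhibitors act on were mostly within 1.5-fold of control. Of 8 measured G1 cyclins and kinases, all past the filter, 0 passed 1.5-fold in any comparison, and their median lay 0 from control for Met-ENK and -0.16 for β-END(1-9). Cdk4, the main target of the INK4 proteins, had 13.23 with Met-ENK, 13.32 with β-END(1-9) and 13.47 in control cells, and Cdk6 had 15.02, 14.53 and 14.93 in that order. Cdk2, the Cip/Kip target, had 12.06 with either peptide and 12.58 in control cells, a log2 difference of -0.52 for both. The values of both peptide arrays were exactly equal, which is no measure of an equal response. Among the D-type cyclins, which activate Cdk4 and Cdk6, Ccnd1 had 13.41 with Met-ENK, 13.47 with β-END(1-9) and 13.67 in control cells, Ccnd2 read 13.46 on all 3 arrays, and Ccnd3 had 16.05, 15.89 and 16.05.

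Of the 8 measured genes for S and M phase cyclins, Cdk1 and the CDK-activating kinase, 2 were at least 1.5-fold lower with Met-ENK than in control cells, and 0 with β-END(1-9), where 6.02% and 2.27% of all genes past the filter were. Mnat1, the assembly subunit of the CDK-activating kinase, had 9.33 with Met-ENK, 9.75 with β-END(1-9) and 10.27 in control cells, so that Met-ENK lay -0.93 and β-END(1-9) -0.52 from control. Cdk1, the mitotic kinase and a substrate of Cdkn3, had 11.75, 12.10 and 12.35 in that order, at -0.59 and -0.24 from control. Its Met-ENK difference was just past 1.5-fold. Of the 8 measured CDK-regulating kinases, phosphatases and Cks proteins, 1 was higher and 0 lower by 1.5-fold with Met-ENK. That gene was Cdc14a, a phosphatase that acts on CDK substrates, with 9.42 with Met-ENK, 8.54 with β-END(1-9) and 8.72 in control cells, 0.70 above control with Met-ENK. In that comparison 0.692% of all genes were higher by 1.5-fold. Its β-END(1-9) difference from control was -0.18, and Met-ENK was 0.88 above β-END(1-9).

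Among 24 measured late cell cycle genes, all past the filter, 2 were at least 1.5-fold lower with Met-ENK than in control cells and 0 higher, close to the share of all genes (6.02% lower). Their median difference was -0.02, with 13 below and 7 above control by any amount. The 2 were Pttg1, the securin that restrains sister separation, and Aurkb, the kinase of the chromosomal passenger complex. Pttg1 had 9.39 with Met-ENK, 9.88 with β-END(1-9) and 10.52 in control cells, at -1.12 and -0.64 from control, which made it the 1 gene of this list past 1.5-fold with β-END(1-9), where 2.27% of all genes were lower. Aurkb had 11.75 with Met-ENK, 12.18 with β-END(1-9) and 12.36 in control cells (-0.61 and -0.18). The proliferation marker Mki67 had 16.12 with Met-ENK, 15.72 with β-END(1-9) and 16.01 in control cells, and the mitotic kinase Plk1 had 14.87, 14.72 and 14.76.

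Downstream of the CDKs, 14 genes of the Rb and E2F families and the DREAM and MuvB complexes were measured, of which 1 was at least 1.5-fold lower with Met-ENK than in control cells and 0 were higher, beside 6.02% and 0.692% of all genes. It was Rbbp4, a histone-binding subunit, with 13.01 with Met-ENK, 13.20 with β-END(1-9) and 13.78 in control cells (-0.77 and -0.57). The list's median difference was 0 for Met-ENK and -0.16 for β-END(1-9). E2f1 had 7.499 with Met-ENK, within the background range, 7.95 with β-END(1-9) and 8.02 in control cells. Foxm1, the activator of late cell cycle genes, read 9.72 on all 3 arrays.

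Of 11 measured genes for the ubiquitin ligases that degrade CDK inhibitors, 1 deposited signal, that of Ubac1, was past 1.5-fold lower with Met-ENK (6.02% of all genes were), and 0 passed 1.5-fold with β-END(1-9). Ubac1, a subunit of the ligase for p27 in G1, had 7.07 with Met-ENK, 7.77 with β-END(1-9) and 7.68 in control cells, -0.60 and 0.09 from control. Its Met-ENK signal lay within the background range, and on the floor the difference was -0.11, so the 1.5-fold call is lost. Skp2, the F-box protein that recognises p27, had 7.15 with Met-ENK, 7.35 with β-END(1-9) and 7.41 in control cells, all within the background range. The scaffold Cul1 had 13.18, 12.99 and 13.16 in that order.

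Among 23 measured transcriptional regulators of CDK inhibitor genes, 21 past the filter, 1 gene was 1.5-fold lower with Met-ENK, 1 other gene with β-END(1-9), beside 6.02% and 2.27% of all genes, and none was higher (0 genes). Id1, which blocks basic helix-loop-helix activators of these genes, had 13.53 with Met-ENK, 13.97 with β-END(1-9) and 14.19 in control cells, a log2 difference from control of -0.66 with Met-ENK. Klf4, a transcription factor that activates Cdkn1a, had 7.91 with Met-ENK, 7.81 with β-END(1-9) and 8.40 in control cells, which is -0.49 and -0.59 from control. Its β-END(1-9) difference was only just past 1.5-fold. The p53 relative Tp63, a regulator of basal keratinocytes, had 14.68, 14.33 and 14.60, Myc had 13.59, 13.44 and 13.73, and the p53 inhibitor Mdm2 read 10.82 on all 3 arrays. Both peptides were compared with the same control array, so their differences share its error.

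**Figure D5:**
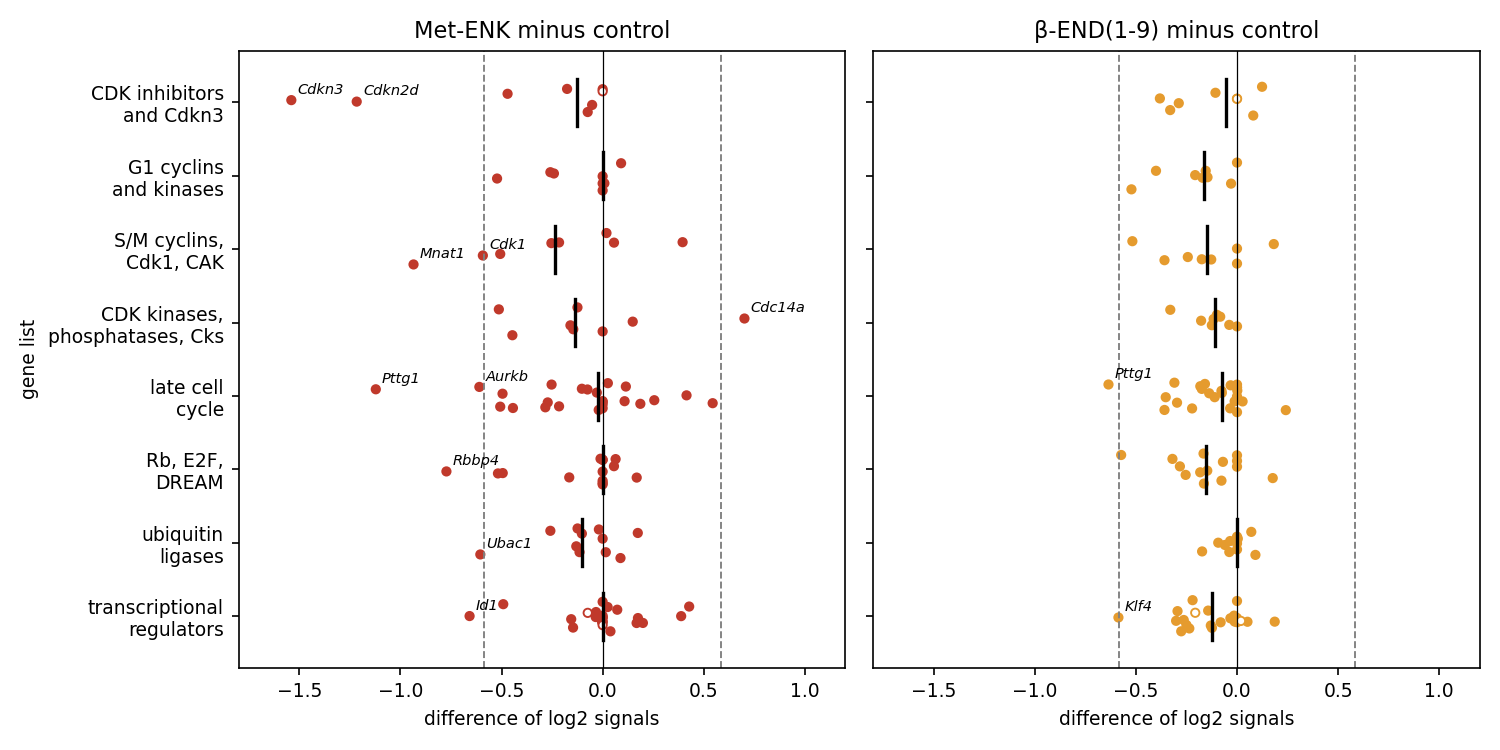
Difference of log2 signals from control (horizontal axis) for every measured gene of 8 lists (rows), with Met-ENK on the left and β-END(1-9) on the right, filled points for genes past the expression filter, open points for the others, black bars at the list medians and dashed lines at 1.5-fold. Names are given for genes past the filter and past 1.5-fold. In deposited signals Cdkn3 and Cdkn2d lie lowest on the left, with Met-ENK values within the background range, and on the right the genes past the line are Pttg1 and Klf4.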

How the data were processed

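Total RNA of 3 cultures was labelled with the WT PLUS kit and measured on 3 arrays, per the labels' protocols. The authors deposited a log2 signal for each probe set on each array. Per the submitters' processing notes, the tools were RMA, which corrects background, quantile-normalizes probes and summarises each set, with the Transcriptome Analysis Console and the Affymetrix Expression Console. For versions and genome build the sources used here give nothing. Of 24834 probe sets, 23188 were transcript clusters. The platform annotation names 1 gene for 15049 of these, several for 0 and none for 8139, and the probe set with the highest mean was used per gene. All 8 members matched RefSeq (assembly GRCr8), which gave spans and promoters.

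Groups came from the sample titles. Differences were taken between single arrays, without a test, in Python 3.11.15 with pandas 2.3.3. The number of arrays limits the precision. By rule, the genes named were the members, the 6 nearest in pattern to each member past 1.5-fold, and in each list the genes past the filter and 1.5-fold or, with none, up to 4 of highest mean. Cdk4, Cdk2, Mki67, Plk1, E2f1, Foxm1, Skp2, Cul1, Tp63, Myc, Mdm2 and the genes of the added list were named outside it, after their values were seen. Members and lists were chosen with earlier results of these data known. The alternatives were 3 other scalings (cyclic loess with limma 3.58.1 among them), removal of the span trend, 2 other filters, 2-fold, the mean over probe sets and, added after seeing the data, a floor at the highest background probe set. The counting was run on simulated arrays without noise, filter or background floor, which checks only its arithmetic.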

Additional observations from a re-analysis of the deposited data

How the results depend on the processing

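No paired analysis was possible because each group has 1 array. The count of 2 members lower with Met-ENK, against control and against β-END(1-9), did not change under any of these settings (3 other scalings, span trend removed, no filter, a filter above the highest background probe set, 2-fold, mean over probe sets). The probe set mean could not change that count, because each member has 1 probe set. Dropping the filter could not either, because it adds only Cdkn1c, whose differences are all 0. Median centring moves every gene by the same small amount, -0.02 against control and 0.01 against β-END(1-9), too little to change the count. The stricter filter uses the mean of the 3 arrays, 8.14 for Cdkn3 and 7.70 for Cdkn2d. Both pass it through the β-END(1-9) and control arrays, so it says nothing of their Met-ENK values within the background range. Removing the span trend takes out a smoothed centre line only. With signals raised to the highest background probe set the count was 1 against control, since Cdkn2d then differed by -0.51. Under the scalings, span removal and probe set mean, the Cdkn3 difference of Met-ENK from control, in signals not raised to that floor, ranged from -1.56 to -1.46 and that of Cdkn2d from -1.24 to -1.15. Of 24 member differences, 1 moved by more than 0.1 after quantile normalization, that of Cdkn2a for β-END(1-9) against control (0.23).

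Counts over all genes depended on the settings. For Met-ENK against control, 453 lower and 52 higher became 56 and 5 at 2-fold. The higher count was 91 after quantile normalization, 448 without a filter, 22 with the stricter filter and 21 with the background floor. For β-END(1-9) against control, 171 lower and 42 higher became 16 and 5 at 2-fold, 296 and 397 without a filter, and 106 and 13 with the floor, and the higher count was 14 with the stricter filter. For Met-ENK against β-END(1-9), 203 lower and 142 higher became 16 and 6 at 2-fold and 459 and 377 without a filter, and the higher count was 93 with the floor. Lower genes made up 89.7% with Met-ENK and 80.3% with β-END(1-9) against control, and 78.8% and 64.8% after quantile normalization. The cause of these shifts was not tested, apart from the number of genes that each filter or fold leaves.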

Other observations

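Other proteins that bind CDKs, their cyclins or the Cdkn2a products were looked up after the data were at hand, in a list of 10 genes of which 9 were measured and 6 passed the expression filter. With Met-ENK 1 of them, Cdk2ap2, was at least 1.5-fold lower than control and 0 were higher. Of all genes past the filter, 6.02% were lower and 0.692% higher by that much. With β-END(1-9) 0 passed in either direction, where 2.27% of all genes were lower and 0.559% higher. Cdk2ap2, a relative of the CDK2-associated protein Cdk2ap1, had log2 signals of 7.56 with Met-ENK, 7.72 with β-END(1-9) and 8.18 in control cells, and its Met-ENK signal lay within the background range; on the floor of the highest background probe set it was at least 1.53-fold lower than control. Cdk2ap1 had 13.53 with Met-ENK, 13.70 with β-END(1-9) and 13.76 in control cells. Cdkn2aip, which encodes a protein that binds ARF, had 8.06 with Met-ENK, 8.01 with β-END(1-9) and 8.06 in control cells, and Cdkn2aipnl, its shorter relative, had 12.05, 12.40 and 12.58. Hexim1, which inhibits the transcriptional kinase Cdk9, had 8.45 with Met-ENK and 8.66 on both other arrays. Cdk5r1, the p35 activator of Cdk5, was below the filter and within the background range, at 5.45 with Met-ENK, 5.23 with β-END(1-9) and 4.53 in control cells.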
